A study of Rattus norvegicus with 18 samples.

Results

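Transcripts of 10 genes that control apoptosis, the p53 response and cell cycle arrest were followed in rat lungs after ischemia and reperfusion. The genes were Bcl2l1, Mcl1, Bax, Gadd45a, Gadd45b, Gadd45g, Cdkn1a, Cdkn2b, Mdm2 and Btg2, and a probe set stood for a gene where the platform annotation gave that symbol alone. Values were obtained for 8 of the 10 genes, from 13 probe sets, among 7728 genes tested in all. The Bax probe set also names a second locus, so no Bax value is given, and no probe set carried the symbol Btg2. Of the 13 probe sets 12 passed the filter on low signals, which asked for at least 3 arrays above a signal of 173.6.

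Lungs came from male Sprague-Dawley rats that were anesthetized and ventilated. The left lung was deprived of blood flow for 2 h by a clamp on its hilum, warm and in place, and was collected after 30 min (n = 3) or 3 h (n = 3) of reperfusion. Unclamped right lungs were collected at the same times (n = 3 each), and 6 normal lungs taken directly after sacrifice served as controls. Each lung was measured whole on 1 Affymetrix rat 230A array. All clamped lungs were left lungs, so the clamp and the side of the body cannot be told apart, and the side of the control lungs and the age of the rats are not given by the labels. The groups used here hold no lung after surgery without a clamp and none after a clamp without reperfusion. Operated and control lungs therefore differ in anesthesia, ventilation and surgery as well as in blood flow. In whole lung, a change in the number of cells of a type and a change in RNA per cell cannot be told apart.

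Cells under stress weigh survival against death partly through the BCL2 family: Bcl-xL, encoded by Bcl2l1, and MCL1 hold the mitochondrial outer membrane intact, and BAX permeabilizes it. The transcription factor p53 responds to DNA damage and other stress by raising genes that stop the cell cycle, such as Cdkn1a, Gadd45a and Btg2, and it also raises Mdm2, whose product marks p53 for destruction. The GADD45 proteins bind cell cycle and stress kinases, and p21 (Cdkn1a) and p15 (Cdkn2b) inhibit cyclin-dependent kinases.

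DNA before the start sites of 4 of the measured genes is shown. Their windows hold a known motif of transcriptional control and reach outside the annotated gene. Gadd45a and Gadd45g rose in all 4 operated groups. Cdkn1a rose at 30 min on both sides, less firmly on the right, and Cdkn2b fell in left lungs at 30 min. The sequences are from RefSeq on build GRCr8, read 5′ to 3′ on the strand of the gene, with motif matches in capitals, and stop where the annotated gene begins. Gadd45a is shown at chr4:97486800-97487049 (minus strand), Gadd45g at chr17:13530352-13530601 (minus strand), Cdkn1a at chr20:7150682-7150819 (plus strand) and Cdkn2b at chr5:109134907-109135105 (minus strand). The capitals mark a p53 decamer, one of the pair that makes up a full response element, in Gadd45a and Cdkn1a, the E-box CACGTG and then the TATA box TATAAA in Gadd45g, and the cyclic AMP element TGACGTCA in Cdkn2b.
Gadd45a: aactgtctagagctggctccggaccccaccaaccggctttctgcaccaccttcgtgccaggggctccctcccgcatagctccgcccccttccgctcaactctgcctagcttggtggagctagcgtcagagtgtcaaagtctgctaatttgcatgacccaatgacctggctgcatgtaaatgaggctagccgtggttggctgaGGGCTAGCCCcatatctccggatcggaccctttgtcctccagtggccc
Gadd45g: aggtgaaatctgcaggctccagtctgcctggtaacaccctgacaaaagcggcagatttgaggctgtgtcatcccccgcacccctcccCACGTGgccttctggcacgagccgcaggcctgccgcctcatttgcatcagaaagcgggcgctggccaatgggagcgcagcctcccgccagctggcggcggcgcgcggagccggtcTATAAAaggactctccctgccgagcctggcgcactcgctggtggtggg
Cdkn1a: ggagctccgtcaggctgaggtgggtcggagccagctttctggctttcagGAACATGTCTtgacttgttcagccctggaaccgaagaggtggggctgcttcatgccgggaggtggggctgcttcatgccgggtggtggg
Cdkn2b: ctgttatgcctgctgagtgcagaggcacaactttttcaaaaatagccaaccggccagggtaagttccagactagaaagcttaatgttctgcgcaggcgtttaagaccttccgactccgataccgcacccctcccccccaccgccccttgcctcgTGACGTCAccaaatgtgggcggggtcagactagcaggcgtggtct

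The search covered 250 bases before each start site, on both strands, in the 9 members that have an entry in the promoter table (all but Bax). A start site can lie inside the annotated gene. The window then does so in part, as for 112 bases in Cdkn1a and 51 in Cdkn2b, or whole, as in Mcl1 and Gadd45b. Distances are counted from the start site of the search, so that of Cdkn1a is not counted from the end of its printed sequence. A p53 decamer, by its standard consensus, lay 48 bases before the start in Gadd45a and 201 bases before it in Cdkn1a, and 6.64% of 33469 promoter windows hold one. The E-box CACGTG was found in Gadd45g and Gadd45b (5.59% of windows), and TATAAA in Gadd45g (12.9%). The sequence TGACGTCA was found in Cdkn2b and in Btg2 (1.59%), and a match to the NF-kB motif (GGGA, any base, then TTTCC) in Mcl1, on the minus strand (0.314%). No match to the AP-1 motif TGANTCA (6.34% of windows), the heat shock pair GAANNTTC (7.23%) or the C/EBP motif TTGCNNAA (9.22%) was found in the 9 members, and the windows of Bcl2l1 and Mdm2 held none of the 8 motifs. The motifs did not overlap each other in these windows. A match describes the sequence and says nothing about binding.

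Against the 6 control lungs, 6 of the 8 members rose and 1 fell in the left lung at 30 min, and 6 rose and 0 fell at 3 h. A gene was called where limma gave a Benjamini-Hochberg adjusted p under 0.05 over all probe sets tested. In the left lung, 8.64% of all tested genes were called higher and 9.52% lower at 30 min, and 13.5% higher and 24.1% lower at 3 h. The right lung had 4 members higher and 0 lower at 30 min (5.93% and 6.33% of all genes), and 5 higher and 0 lower at 3 h (7.75% and 12.6%). The median log2 difference of the 8 members was 1.15, 1.55, 0.65 and 0.87 in left 30 min, left 3 h, right 30 min and right 3 h, beside −0.06, −0.13, −0.04 and −0.05 over all genes. These 4 comparisons share the same 6 controls. Without the 3 arrays of highest actin ratio, described with Mdm2, 7, 7, 5 and 5 members were called in either direction, where 5.6%, 38.7%, 10.4% and 21.6% of all genes were. In that analysis Cdkn1a was also called in left lungs at 3 h (0.45, adjusted p = 0.0306). In right lungs at 30 min Cdkn1a was lost (0.31, adjusted p = 0.268), Mdm2 was gained (1.03) and Cdkn2b was called lower (−1.11, adjusted p = 0.0499).

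**Figure D1:**
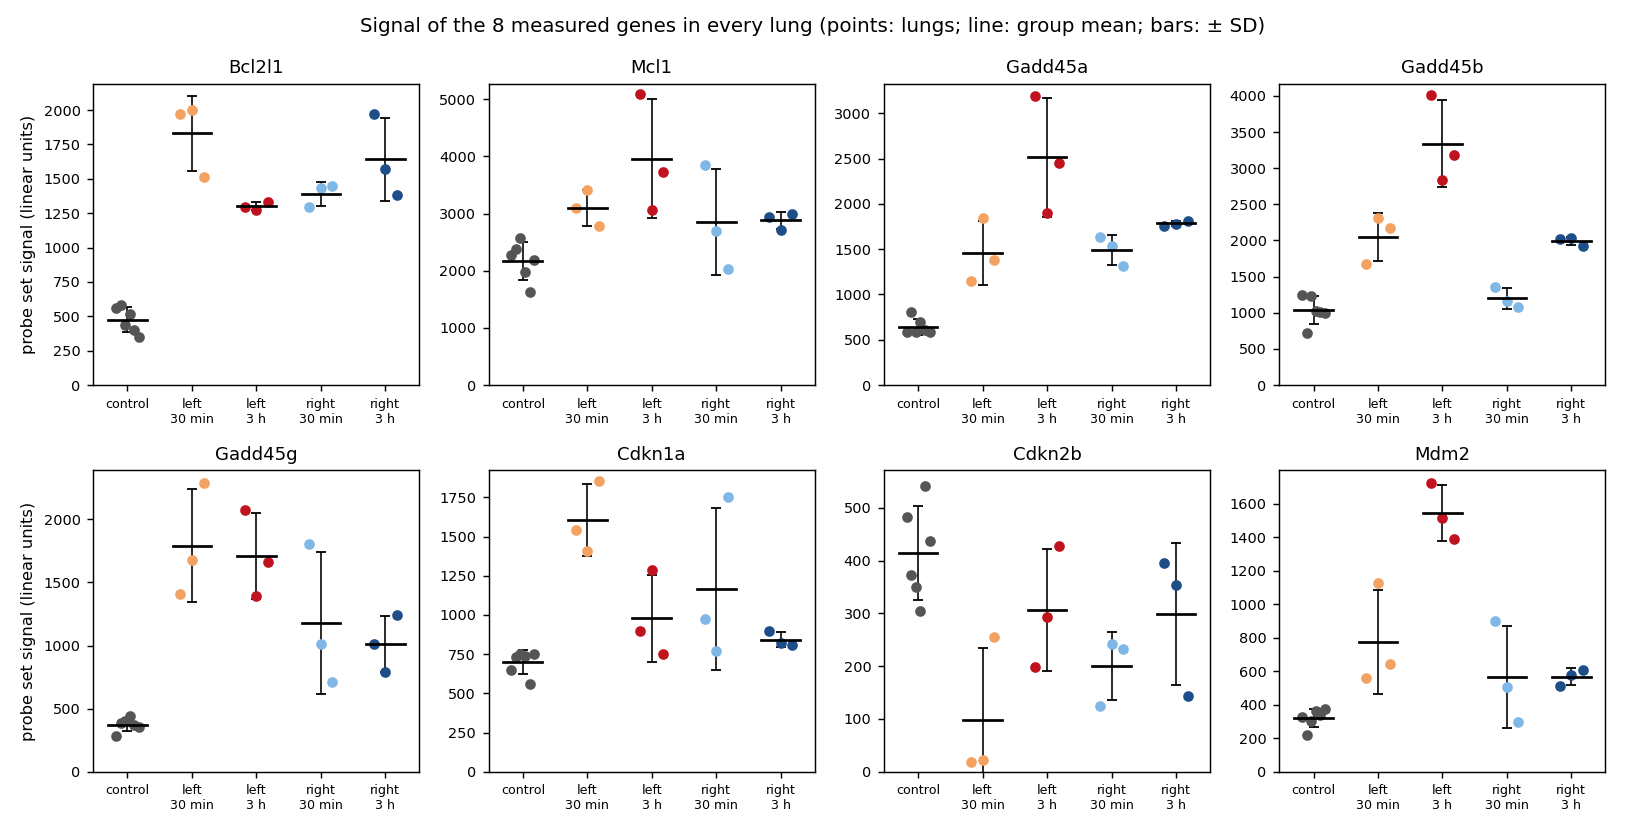
Probe set signal, in linear units from 0, of each of the 8 measured members in every lung, 1 panel per gene. Points are single lungs of the control, left 30 min, left 3 h, right 30 min and right 3 h groups, the line is the group mean and the bars are ± SD, which for Cdkn2b in left 30 min lungs reach below 0 and are not drawn there. In Bcl2l1, Gadd45a, Gadd45g and Cdkn1a every operated lung lies above all 6 controls, which 3.23% of all tested genes share.

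**Figure D2:**
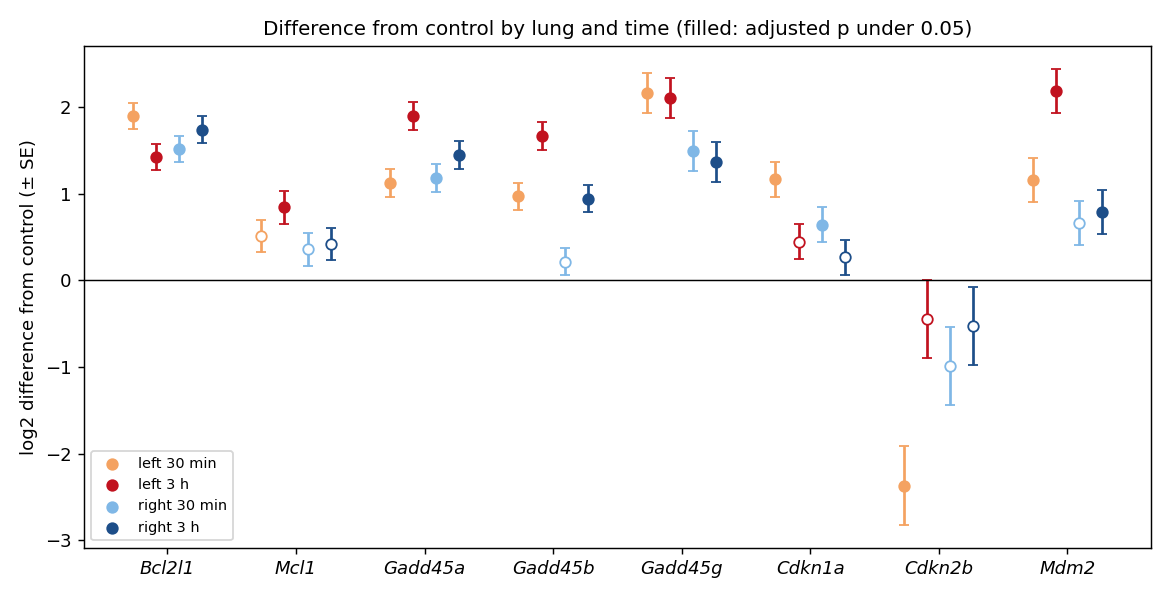
Log2 difference from the 6 control lungs for the 8 members in the 4 operated groups, with limma standard errors. Filled points passed an adjusted p under 0.05. Gadd45g has the highest value in the left lung at 30 min (2.17) and Mdm2 at 3 h (2.19), and Cdkn2b is the member below 0 in all 4 groups.

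Bcl2l1 encodes the survival factor Bcl-xL (chr3:161713777-161764844, probe set 1370812_at). Its signal in the 6 controls ran from 352 to 583, with a median of 477. After clamping and 30 min of reperfusion it was 1974, 2003 and 1514, and after 3 h 1293, 1275 and 1333. The unclamped right lungs gave 1292, 1435 and 1447 at 30 min, and 1974, 1574 and 1382 at 3 h. All 12 operated lungs lay above every control, on both sides of the body and at both times. The gene was 3.73-fold higher in the left lung at 30 min (log2 difference 1.90 ± 0.15 SE, adjusted p = 8.74e-07, limma) and 2.69-fold higher at 3 h (1.43 ± 0.15, adjusted p = 5.36e-06). The right lung was 2.87-fold higher at 30 min (adjusted p = 1.16e-05) and 3.35-fold higher at 3 h (adjusted p = 1.35e-06). In Bcl2l1 all left lungs lay above all right lungs at 30 min and below them at 3 h, and neither difference was called. Probe set 1370485_a_at of Bcl2l1 was dim (54.7 to 155 in controls), passed the filter only through lungs at 3 h, and is given without a test. Its signals were 201, 191 and 122 in the left lungs at 3 h and 169.7, 181 and 208 in the right lungs at 3 h. The probe set 1369180_at stayed between 65.6 and 121 on all 18 arrays and was not tested. The calls of Bcl2l1 thus rest on the brightest of its 3 probe sets.

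Mcl1 encodes a short-lived survival factor of the same family (chr2:185884840-185912532). With probe set 1372520_at its signal ran from 1620.1 to 2580.0 in controls (median 2232). The left lungs gave 3096, 3408 and 2775 at 30 min and 5101, 3057 and 3729 at 3 h. The right lungs gave 3856, 2689.8 and 2029 at 30 min, which overlapped the controls, and 2939, 2718 and 2988 at 3 h. Mcl1 was called in the left lung at 3 h, 1.79-fold higher (0.84 ± 0.19, adjusted p = 0.00218). The log2 difference in the left lung at 30 min was 0.52 ± 0.19 and missed the threshold (adjusted p = 0.059). The second probe set, 1370141_at, ran from 688 to 871 in controls and gave 3222, 1902 and 1871 in the left lungs at 3 h. It was 2.81-fold higher there (1.49 ± 0.20, adjusted p = 4e-05), and 1.76-fold higher in the right lung at 3 h (0.82 ± 0.20, adjusted p = 0.00799). In the left lung at 30 min this probe set overlapped the controls and was not called (0.47 ± 0.20, adjusted p = 0.107, limma). Both probe sets showed the rise in the left lung at 3 h, with a larger fold for the dimmer one.

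The Gadd45 genes, sensors of stress that bind kinases and cell cycle proteins, rose together in the clamped lung. Gadd45a (chr4:97484497-97486799) ran from 582 to 802 in controls (median 601). Its left lungs gave 1147, 1845 and 1378 at 30 min and 3195, 1894 and 2449.9 at 3 h. Its right lungs gave 1634, 1531 and 1313 at 30 min and 1759, 1779 and 1813 at 3 h. Every operated lung was above every control. Gadd45a was 2.19-fold higher in the left lung at 30 min (1.13 ± 0.16, adjusted p = 0.000155) and 3.74-fold at 3 h (1.90 ± 0.16, adjusted p = 6.27e-07). In the right lung it was 2.28-fold higher at 30 min (adjusted p = 0.000149) and 2.72-fold at 3 h (adjusted p = 1.39e-05).

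Gadd45g (chr17:13528606-13530351) had the highest fold of the members in the left lung at 30 min. Its controls ran from 285 to 442 (median 380.0). Its left lungs gave 1412, 1676 and 2288 at 30 min and 2071, 1390.2 and 1663 at 3 h, and no operated lung overlapped the controls. Its right lungs gave 1803, 1014 and 715 at 30 min and 1010.0, 793 and 1239 at 3 h. The gene rose 4.50-fold in the left lung at 30 min (2.17 ± 0.23, adjusted p = 1.13e-05) and 4.32-fold at 3 h (2.11 ± 0.23, adjusted p = 6.36e-06). The right lung was 2.83-fold higher at 30 min (adjusted p = 0.000415) and 2.58-fold at 3 h (adjusted p = 0.000587).

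Gadd45b (chr7:9428689-9430991) rose in the operated groups other than the right lungs at 30 min, which overlapped the controls. Its controls ran from 725 to 1249.7 (median 1017), and the right lungs gave 1356, 1166 and 1075 at 30 min and 2025, 2028 and 1929 at 3 h. The left lungs gave 1669.7, 2309 and 2172 at 30 min and 4006, 2834 and 3182 at 3 h, all above the controls. Gadd45b was 1.96-fold higher in the left lung at 30 min (0.97 ± 0.16, adjusted p = 0.000439) and 3.18-fold at 3 h (1.67 ± 0.16, adjusted p = 1.71e-06). In the right lung it was 1.92-fold higher at 3 h (adjusted p = 0.000567), and its log2 difference at 30 min was 0.22 ± 0.16 (adjusted p = 0.39).

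Mdm2 encodes the ubiquitin ligase that removes p53 (chr7:55176558-55201757, probe set 1384427_at). Its controls ran from 222 to 377 (median 331). Its left lungs gave 557, 1128 and 640.3 at 30 min and 1723, 1511 and 1391 at 3 h, all above the controls. The right lungs gave 897, 505 and 299.6 at 30 min and 511, 580.2 and 609 at 3 h, so that 1 right lung at 30 min lay among the controls. Mdm2 was 2.23-fold higher in the left lung at 30 min (1.16 ± 0.25, adjusted p = 0.00434) and 4.56-fold at 3 h (2.19 ± 0.25, adjusted p = 1.14e-05), the highest fold of the members at that time. The right lung was 1.73-fold higher at 3 h (0.79 ± 0.25, adjusted p = 0.0358), a call that ended in 9 of 21 alternative analyses. At 30 min the right lung gave 0.66 ± 0.25 and was not called (adjusted p = 0.095). Without right 30 min replicate 3 the latter became 1.03 (adjusted p = 0.0125). That array and left 30 min replicates 1 and 3 had the highest ratios of 3′ over 5′ actin signal, a measure of RNA integrity, at 2.93, 4.81 and 2.30 against 1.31 to 1.78 on the other 15. Without these 3 arrays the left 30 min value of Mdm2 was 1.75, from 1 remaining lung. The part of RNA quality in these values was not tested. The dimmer probe set 1383485_at of Mdm2 ran from 107 to 228 in controls and gave 368, 322 and 296 in the left lungs at 3 h. It was 1.83-fold higher there (0.87 ± 0.30, adjusted p = 0.0313), and in the left lung at 30 min its log2 difference was −0.01. With the mean of both probe sets, the left 30 min value of Mdm2 was 0.58 and was no longer called (adjusted p = 0.129).

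Cdkn1a encodes p21, the cyclin-dependent kinase inhibitor through which p53 stops the cycle (chr20:7150820-7161373, probe set 1388674_at). Its controls ran from 562 to 751 (median 738). The left lungs gave 1542, 1411 and 1857 at 30 min and 897, 1289 and 754 at 3 h. The right lungs gave 974, 772 and 1753 at 30 min and 899, 823 and 805 at 3 h. All 12 operated lungs were above the controls, by a small margin in several. Cdkn1a was 2.25-fold higher in the left lung at 30 min (1.17 ± 0.20, adjusted p = 0.000741). At 3 h the log2 difference was 0.45 ± 0.20 on the left and 0.27 ± 0.20 on the right, and neither was called. The right lung at 30 min was called at 1.56-fold (0.64 ± 0.20, adjusted p = 0.0431), a call that ended in 12 of 21 alternative analyses. Without right 30 min replicate 3 its value was 0.31 (adjusted p = 0.263). The dim probe set 1387391_at of Cdkn1a (60.7 to 153 in controls) passed the filter only through operated lungs, so no test is read from it. Its left lungs had signals of 106, 172 and 184 at 30 min and of 218, 249.8 and 243 at 3 h. Those of the left lungs at 3 h lay above all controls. The right lungs at 30 min did so too, at 159 to 176. No control and every left lung at 3 h was above the filter signal. The filter thus favoured a separation of these left lungs from controls, which is not read as a result.

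Cdkn2b encodes p15, an inhibitor of the cyclin D kinases (chr5:109123308-109134906), and was the member with lower signals after surgery. Its controls ran from 305 to 542 (median 404). The left lungs gave 18.5, 23.1 and 255 at 30 min and 198, 294 and 428 at 3 h. The right lungs gave 125, 242 and 233 at 30 min and 395, 354 and 144 at 3 h. All lungs at 30 min, left and right, lay below every control, a separation whose share over all genes was not counted. At 3 h both sides overlapped the controls. The fall was called in the left lung at 30 min (log2 difference −2.37 ± 0.45, adjusted p = 0.00167). Of those 3 lungs 2 had a signal under the pseudocount of 25 that was added before taking logs, so the size of the log2 difference depends on it. Without left 30 min replicate 3 the difference was −3.24. The right lung at 30 min gave −0.99, and at 3 h the left gave −0.44 and the right −0.53, none of them called.

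**Figure D3:**
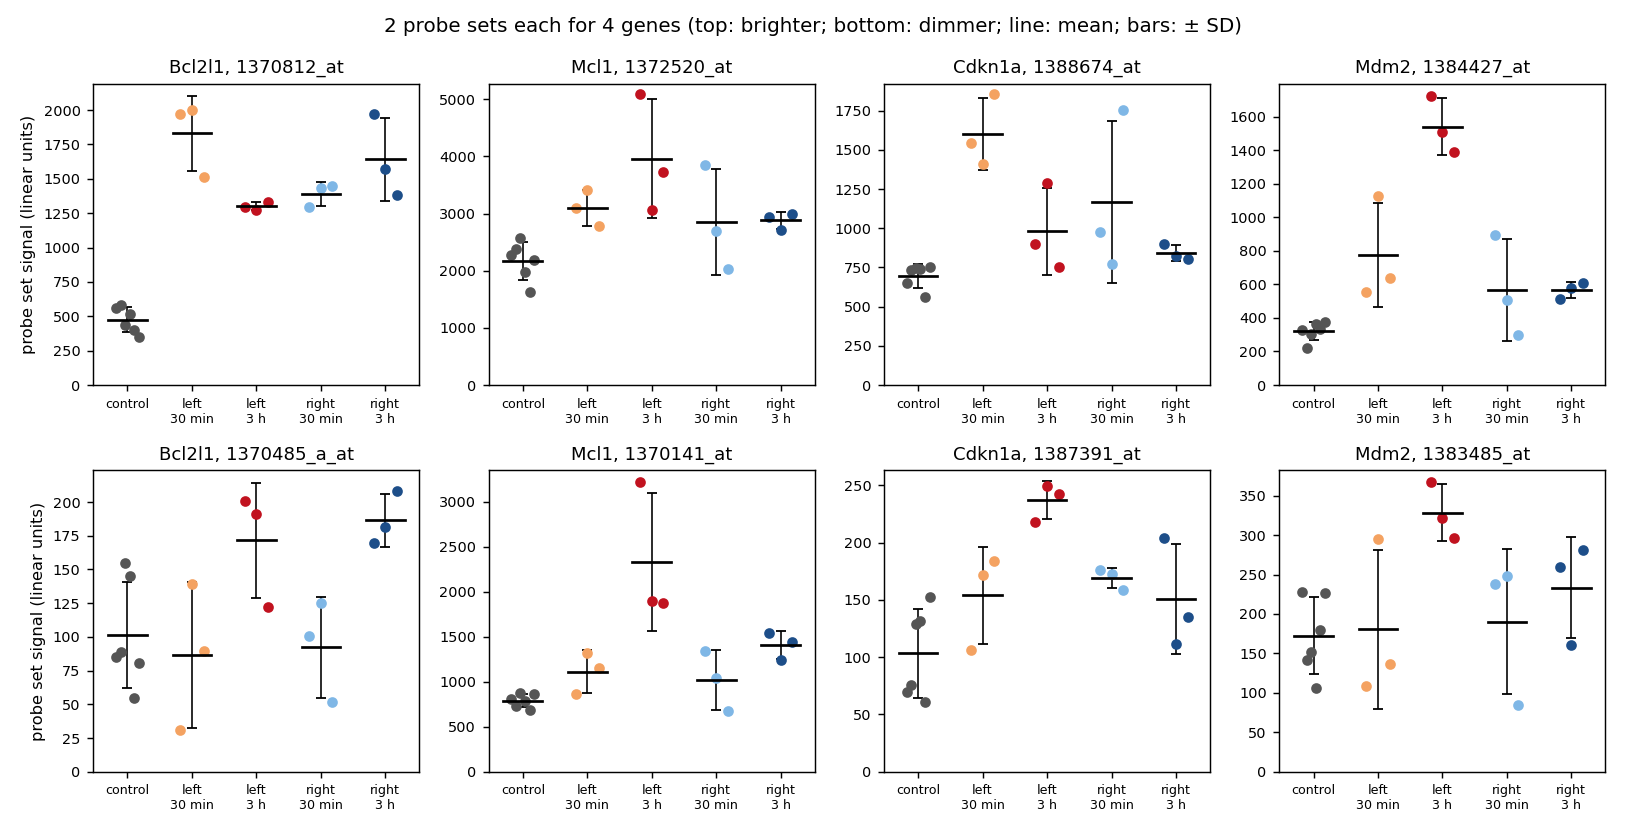
Probe set signal, in linear units from 0, of a brighter (top) and a dimmer (bottom) probe set of Bcl2l1, Mcl1, Cdkn1a and Mdm2 in every lung of the 5 groups, with the group mean (line) and ± SD (bars). Both probe sets of Mcl1 and of Mdm2 have their highest mean in left lungs at 3 h, and those of Cdkn1a differ in which time is higher on the left.

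Clamped and unclamped lungs were next compared directly. At 30 min 0 of the 8 members were called between left and right by limma (0.0518% of all genes were), although 5 members and 8.33% of all genes had an unadjusted p under 0.05. Of these members Bcl2l1, Gadd45b, Gadd45g and Cdkn1a were higher on the left and Cdkn2b lower. Gadd45b gave 0.75 ± 0.18 at 30 min (adjusted p = 0.195), close to its value at 3 h. At 3 h 2 members were higher on the left and 0 lower, where 1.75% of all genes were called higher and 0.621% lower. Mdm2 was 2.64-fold higher in the left lung (1.40 ± 0.29, adjusted p = 0.0196) and Gadd45b 1.65-fold (0.72 ± 0.18, adjusted p = 0.0466). In Mdm2, Gadd45a, Gadd45b, Gadd45g and Mcl1 every left lung at 3 h lay above every right lung, as in 7.56% of all genes, and in Bcl2l1 every left lung lay below, as in 9.50%. When 1 array was left out the number of members called ran from 0 to 2. It was 0 without left 3 h replicate 1, without right 3 h replicate 1 or without right 3 h replicate 2, and 1 without left 3 h replicate 3 or right 3 h replicate 3. With the mean of both its probe sets Mdm2 gave 0.94 and was not called (adjusted p = 0.102). The median difference of the members between left and right was 0.44 at both times, beside −0.01 and −0.07 over all genes.

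**Figure D4:**
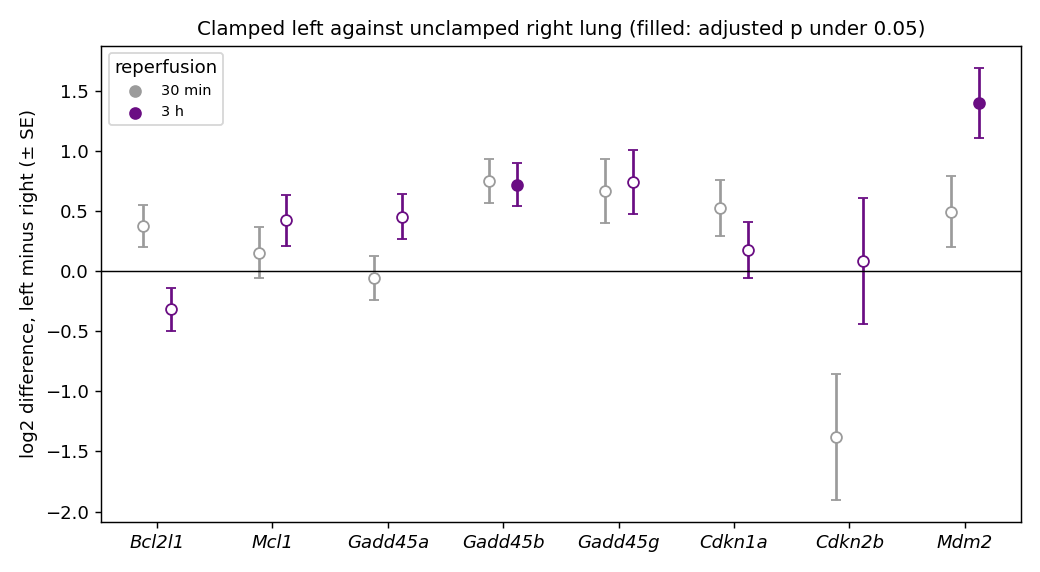
Log2 difference between left and right lungs for the 8 members at 30 min and at 3 h, with limma standard errors. Filled points passed an adjusted p under 0.05, which only Mdm2 and Gadd45b did, at 3 h.

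Between the 2 times, 2 members were higher in the left lung at 3 h than at 30 min and 0 were lower (1.23% and 1.84% of all genes). Gadd45a was 1.71-fold higher at 3 h (0.77 ± 0.19, adjusted p = 0.0347) and Gadd45b 1.62-fold (0.70 ± 0.18, adjusted p = 0.0456). Cdkn1a moved the other way without being called (−0.72 ± 0.23, adjusted p = 0.088), and Mdm2 gave 1.03 ± 0.29 (adjusted p = 0.059). The largest difference was that of Cdkn2b, 1.93 ± 0.52, which missed the threshold narrowly (adjusted p = 0.05) and whose size depends on the pseudocount. Without left 30 min replicate 3 it was 2.80 and was called (adjusted p = 0.000933). The calls of Gadd45a and Gadd45b both ended without left 3 h replicate 1 (0.58 and 0.56), without left 30 min replicate 1 (0.62 and 0.56) or without left 30 min replicate 3 (0.75 and 0.74), and that of Gadd45b also without left 3 h replicate 2 (0.81, adjusted p = 0.0556). Without the 3 arrays of highest actin ratio 1 left lung at 30 min remains. The log2 difference was then 0.41 for Gadd45a, 0.51 for Gadd45b and 2.72 for Cdkn2b. The Cdkn2b signal of that lung, 23.1, is under the pseudocount. In the right lung 0 members were called between the times by limma (0.194% of all genes), with 1 member and 12.4% of all genes at an unadjusted p under 0.05. The change of the left-right difference from 30 min to 3 h was called for 0 members (0.233% of all genes), with 2 members and 7.07% of all genes at an unadjusted p under 0.05, and Mdm2 gave 0.91 ± 0.42 (adjusted p = 0.69). A difference between left and right that changes with time was thus not shown for any member.

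Markers of other cells also differed between the groups, not in the same groups for every cell type. The mean log2 signal of 8 neutrophil markers ran from 7.23 to 7.83 in controls, and from 8.20 to 9.55, 8.62 to 9.84, 8.37 to 9.03 and 8.46 to 9.27 in left 30 min, left 3 h, right 30 min and right 3 h lungs. In each operated group 4 of its 7 tested markers rose, Cxcr1 fell in all but the right lung at 3 h, and 1 marker of the 8 stayed under 173.6 on every array. The mean of 9 lymphocyte markers ran from 7.77 to 8.22 in controls and from 6.84 to 8.11 in operated lungs. Of 7 tested lymphocyte markers 0 rose, and 2, 5, 4 and 5 fell in left 30 min, left 3 h, right 30 min and right 3 h lungs. Erythroid markers (5) stood at 9.65 to 10.4 in right lungs at 30 min against 8.59 to 9.20 in controls. Cardiac muscle markers (11) ran from 5.81 to 6.07 in left and from 7.39 to 9.19 in right lungs at 3 h, where Mdm2 and Gadd45b differed, and from 5.86 to 7.93 in controls. Of 8 tested cardiac markers, 3 were lower and 0 higher on the left than on the right at 3 h (0.621% and 1.75% of all genes). Of the lymphocyte, erythroid and cardiac markers, 1, 1 and 2 stayed under 173.6 on every array. Lung epithelial markers (6), which include surfactant genes, were high in all 18 lungs, at 12.8 to 13.0 in controls. They lay below every control in left lungs at 3 h (12.4 to 12.8) and in right lungs at 30 min (12.6 to 12.7). In left 30 min, left 3 h, right 30 min and right 3 h lungs 0, 1, 2 and 1 of the 6 fell. The shares of all genes called lower were 9.52%, 24.1%, 6.33% and 12.6% in the same order. Endothelial markers (4) ran from 11.6 to 11.9 in controls and from 11.4 to 11.9 in operated lungs. The part of any of these cells in the members' changes was not tested.

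Other genes of the same pathways were counted on lists of which the members were no part. Their counts are to be read beside the shares of all genes called, 8.64% higher and 9.52% lower in left 30 min lungs, 13.5% and 24.1% in left 3 h, 5.93% and 6.33% in right 30 min, and 7.75% and 12.6% in right 3 h. Among 9 tested genes of the death receptors and their adaptors, 3 rose and 0 fell in the left lung at 30 min and 5 rose and 1 fell at 3 h, with medians of 0.33 and 0.92 beside −0.06 and −0.13 over all genes. Tnfrsf12a, the receptor for TWEAK, rose by 2.25 and 3.10 on the log2 scale (adjusted p = 6.7e-05 and 1.7e-06), and by 1.89 and 1.91 in the right lung at 30 min and 3 h. Ripk1, a kinase that couples TNF receptors to survival or death, rose by 1.16 and 1.59 on the left. The cytokine Tnf rose by 1.55 at 30 min on the left, and its rise of 0.92 at 3 h was not called without left 3 h replicate 3 (0.73, adjusted p = 0.0658). At 3 h on the left the necroptosis kinase Ripk3 rose by 1.21, the TNF receptor Tnfrsf1a also rose (adjusted p = 0.001), and the adaptor Tradd fell by 0.69. In the right lung 3 rose and 0 fell at 30 min, and 2 rose and 1 fell at 3 h.

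Of 9 other BCL2 family genes, 1 rose and 0 fell at 30 min and 2 rose and 1 fell at 3 h in the left lung, 1 rose and 0 fell on the right at 30 min, and 2 rose and 1 fell on the right at 3 h. Bcl2l11 encodes BIM, which opposes Bcl-xL and MCL1, and rose by 1.20 at 30 min on the left (adjusted p = 0.00012). Its value at 3 h was 0.60 (adjusted p = 0.0095), and 0.51 without left 3 h replicate 1 (adjusted p = 0.0661). Bnip3, a mitochondrial death and mitophagy factor known for its rise in low oxygen, rose by 1.19 on the left and 1.09 on the right at 3 h. The low value of Bad at 3 h on the left (−0.47, adjusted p = 0.025) was no longer called once each array was centred on its median (−0.35, adjusted p = 0.0916).

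Of 18 caspases, apoptosome genes and inhibitors of apoptosis, 2 rose and 1 fell at 30 min and 4 rose and 4 fell at 3 h in the left lung. The last are 22.2% of the list each way, beside 13.5% and 24.1% of all genes. On the right 1 rose and 1 fell at 30 min, and 0 rose and 3 fell at 3 h. Cflar, a decoy that blocks caspase 8, rose by 2.30 at 3 h on the left (adjusted p = 9.8e-05). Its left 30 min value was 1.44, and 1.15 without left 30 min replicate 2 (adjusted p = 0.0516). Birc3, an inhibitor of apoptosis and a target of NF-kB, rose by 1.71 at 3 h on the left and differed from the right lung by 1.35 (adjusted p = 0.015), a call that ended without left 3 h replicate 1 (0.98, adjusted p = 0.0828), right 3 h replicate 1 (1.27, adjusted p = 0.0731) or right 3 h replicate 2 (1.23, adjusted p = 0.0654). Xiap, the direct inhibitor of caspases, went the other way and was lower by 1.45 and 1.30 on the left and 1.05 and 0.94 on the right at 30 min and 3 h. The last of these was −0.83 without right 3 h replicate 3 (adjusted p = 0.0589). Casp6, an executioner caspase, fell by 0.55 at 3 h on the left.

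Of 9 regulators of p53, 0 rose and 0 fell in the left lung at 30 min by limma and 0 rose and 3 fell at 3 h. The 3 were Ppm1d (−0.48), Prkdc (−0.40) and Parp1 (−0.34), and none of them was called once each array was centred on its median. In the right lung 0 rose and 1 fell at each time. Of 9 other targets of p53, 1 rose and 1 fell at each time on the left, with medians of 0.03 and −0.30. Plk2, a kinase that p53 raises, rose by 0.89 at 30 min and 0.79 at 3 h. At 3 h Plk2 was higher on the left than on the right by 1.04 (adjusted p = 0.0075), and by 0.86 without left 3 h replicate 1 (adjusted p = 0.0541). Zmat3, also a p53 target, fell by 0.63 at 3 h on the left. The other 7 tested p53 targets were not called on the left at either time.

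**Figure D5:**
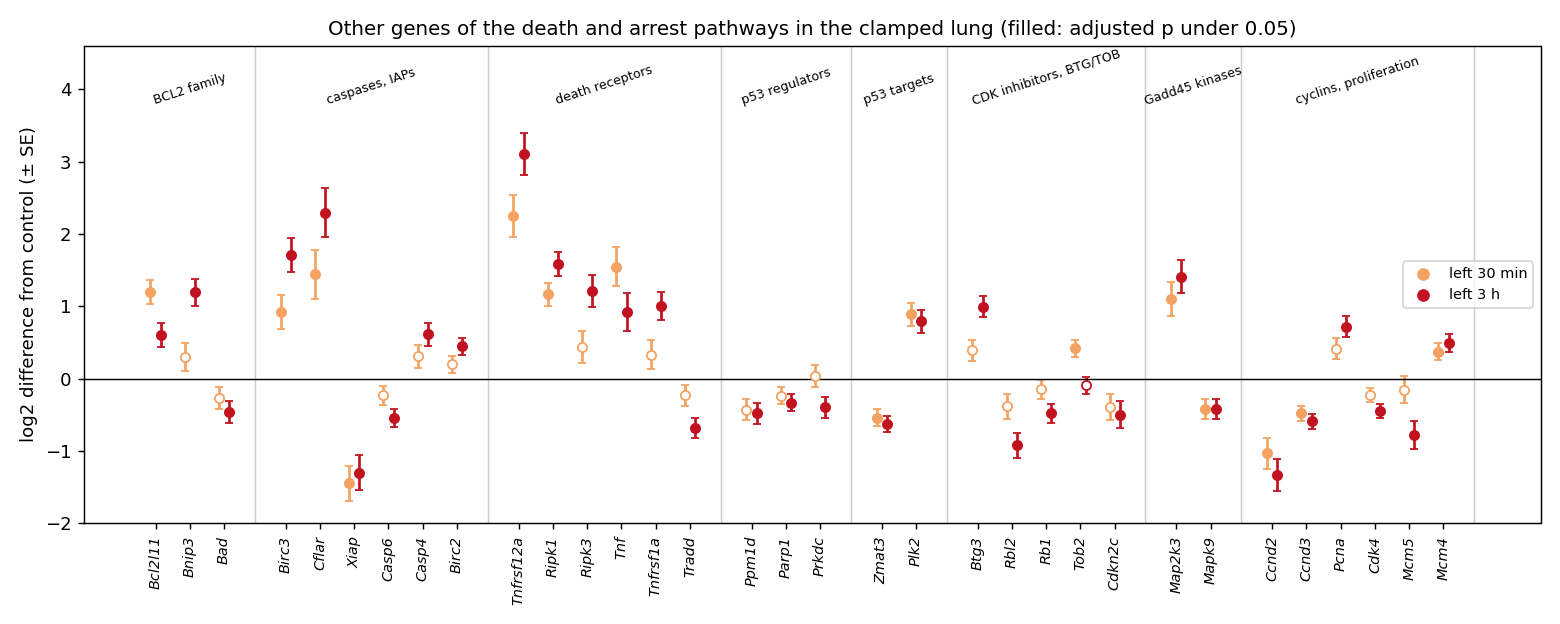
Log2 difference from the 6 controls, with limma standard errors as bars, of the named genes of the 8 pathway lists in left lungs at 30 min and 3 h. Filled points passed an adjusted p under 0.05, and since the genes were named for passing at one of the times or more, the open points are those of the other time. Tnfrsf12a is highest, at 2.25 and 3.10, and Xiap and Ccnd2 are below −1 at both times.

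Of 9 other cell cycle inhibitors and antiproliferative BTG and TOB factors, 1 rose and 0 fell at 30 min and 1 rose and 3 fell at 3 h on the left. Btg3, a relative of Btg2, rose by 0.99 at 3 h on the left and 0.80 at 3 h on the right. Rbl2, a pocket protein related to the retinoblastoma protein, fell by 0.92 at 3 h on the left. Of 4 tested kinases that act downstream of GADD45 proteins, 1 rose and 1 fell on the left at each time. On the right 1 rose and 0 fell at 30 min, and 0 rose and 0 fell at 3 h. The lower gene on the left was Mapk9 (smallest adjusted p = 0.021, limma). Its 30 min call ended without left 30 min replicate 1 (−0.22, adjusted p = 0.274). Its 3 h call ended once each array was centred on its median (−0.31, adjusted p = 0.0725). Map2k3 rose by 1.10 and 1.41 on the left at 30 min and 3 h. Its left 30 min value was 1.15 without the 3 arrays of highest actin ratio (adjusted p = 0.0911). Of 21 cyclins, cyclin-dependent kinases and proliferation genes, 1 rose and 3 fell at 30 min and 2 rose and 6 fell at 3 h on the left, with medians of −0.15 and −0.35. On the right 1 rose and 2 fell at each time. Ccnd2, which encodes cyclin D2, fell in all 4 groups, by 1.04 and 1.33 on the left and by 0.98 and 1.46 on the right. Pcna, the sliding clamp of DNA replication, rose by 0.72 at 3 h on the left, and the replication helicase subunit Mcm5 fell by 0.78.

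The genes of most similar profile were ranked by the mean absolute distance of their 4 log2 differences from those of a member. Socs3, an inhibitor of cytokine signaling, was nearest to Gadd45a, at a distance of 0.0431. Ptgs2, which encodes the inducible cyclooxygenase, was nearest to Mdm2 (0.167), and Lrg1 to Gadd45b (0.166). Errfi1, a feedback inhibitor of the EGF receptor, was the second nearest to both Bcl2l1 (0.206) and Gadd45g (0.131), and Rgs16 the nearest to Bcl2l1 (0.132). Mcl1 had Trmt6 as its nearest gene (0.0434) and Cdkn1a had Gria3 (0.078). For Cdkn2b the nearest gene, Itpkb, was 0.367 away, farther than for any other member. These distances rest on 4 group differences that share the controls, and are given as a description.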

How the data were processed

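The deposited values are probe set signals, a linear intensity made by the authors with MAS5 and scaled to a 2% trimmed mean of 500.1 on every array, per the submitters' processing notes and the values. No further scaling was applied. After 57 control probe sets were left out of 15923, log2(signal + 25) was analysed, and 10533 probe sets with at least 3 arrays above the 40th percentile of signal (173.6) were tested. Adding 25 understates the fold of dim genes. A single symbol was annotated to 12783 probe sets, more than 1 to 312 and no symbol to 2771. Where a gene had several tested probe sets, the one of highest mean stood for it. The 5 group means were fitted over all 18 arrays by limma (version 3.58.1, lmFit and eBayes, R version 4.3.3), two-sided, with Benjamini-Hochberg adjustment within each comparison and a threshold of 0.05. Errors are limma standard errors. The p-values rest on 1 spread between lungs within groups, pooled over the 5 groups and moderated over all tested probe sets. Groups of unequal spread thus share it, as for Cdkn2b, whose log2 SD was 1.51 in left 30 min lungs and 0.29 in controls. Motifs were searched with Python 3.11.15. The scripts were tested on simulated data.

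The members and the gene lists were chosen with earlier results of these data known, and the lists are described by counts alone. From each list, up to 6 called genes could be named, in order of adjusted p. The right lungs came from the operated rats, but replicate numbers were not taken to pair lungs. Deviations of same-numbered lungs correlated at 0.12, 0.31 and 0.15 at 30 min and at −0.17, 0.07 and −0.15 at 3 h. The alternatives were other pseudocounts, filters, scalings, probe set choices, variance models and blocks, and fits without single arrays or without the 3 arrays of highest actin ratio. The number of arrays limits the precision.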

Additional observations from a re-analysis of the deposited data

How the results depend on the processing

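Against control, the number of members called ran over all alternatives from 6 to 8 in left 30 min, 6 to 7 in left 3 h, 3 to 5 in right 30 min and 4 to 6 in right 3 h lungs. No alternative ended a call against control of Bcl2l1, Gadd45a, Gadd45b or Gadd45g, of Cdkn1a or Cdkn2b in left 30 min lungs, or of Mcl1 or Mdm2 in left 3 h lungs. For left against right at 3 h the 2 members called became 1 with a pseudocount of 1, with no filter, with quantile normalization, with the mean of a gene's probe sets, with only the groups compared and without the 3 arrays of highest actin ratio, and 0 to 2 when 1 array was left out. For left 3 h against left 30 min the 2, Gadd45a and Gadd45b, became 0 with no filter and with only the groups compared. Without those 3 arrays the 1 member called was Cdkn2b. With a pseudocount of 1 and with quantile normalization Gadd45b was lost (adjusted p = 0.0502 and 0.0844) and Cdkn2b gained (0.0481 and 0.0469), and with the filter at the 60th percentile or with centring Cdkn2b was called as well (0.0415 and 0.0411). The number called was 0 to 3 when 1 array was left out. Whether a replicate number stands for a rat is not given by the labels. Lungs of the same number correlated above 0.1 in every pair at 30 min, where each lung correlated best with its own number, and in none at 3 h, so the lungs were not treated as paired. A fixed block of replicate number gave lungs of the same number a shared term, at both times and in controls. It thus did not pair the left and right lungs of a rat. With it, 7, 6, 3 and 4 members were called against control. These counts are for left 30 min, left 3 h, right 30 min and right 3 h lungs, in that order. The fixed block left 0 called in left against right at 3 h and 0 in left 3 h against left 30 min. In left against right at 30 min 0 were called, as without the block. A random block of time and number joined only left and right lungs of the same time and number. That random block, with a consensus correlation of 0.074, changed no count of members called. Some differences that were not called turned sign. In left 3 h against left 30 min, Gadd45g (−0.06) gave 0.015 with arrays centred on their medians, 0.0085 without the 3 arrays and −0.21 to 0.13 without single arrays, and Bcl2l1 (−0.47) gave 0.22 with the mean of its probe sets. In the change of the left-right difference, Gadd45b (−0.03) gave 0.011 when centred and −0.17 to 0.078 without single arrays, Gadd45g (0.07) gave −0.0032 with quantile normalization and −0.28 to 0.37, and Cdkn1a (−0.35) gave 0.20 with the mean of its probe sets. The means for Bcl2l1 and Cdkn1a each include a dim probe set that passed the filter only through operated lungs, for Bcl2l1 only those at 3 h. In left against right at 30 min, Gadd45a (−0.06) gave 0.22 without the 3 arrays and −0.24 to 0.10 without single arrays, and Mcl1 (0.16) gave −0.063 to 0.40. In right 3 h against right 30 min, Mcl1 (0.06) gave −0.16 and −0.16 to 0.30, Mdm2 (0.12) gave −0.24 and −0.24 to 0.51, and Gadd45g (−0.13) gave −0.43 to 0.22. In left against right at 3 h, Cdkn1a (0.18) gave −0.032 to 0.35 and Cdkn2b (0.08) gave −0.33 to 0.34. The cause was not tested. Centring each array on its median moved the median log2 difference of all genes from −0.13 to −0.02 in left 3 h lungs, where 53.3% of calls were then higher in place of 35.9%. The same shares were 59.7% and 48.4% in right 30 min lungs, 56.8% and 38.1% in right 3 h lungs, and 61.3% and 40.1% in left 3 h against left 30 min. Without the 3 arrays, left 30 min is 1 lung, which is assumed to vary like the other groups. Dim probe sets, near the filter signal of 173.6, limit what can be said of the second probe sets of Bcl2l1, Cdkn1a and Mdm2.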
